A study of Mus musculus with 3 samples.

Results

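Of 13729 autosomal CpG island regions on the array, 196 (1.43%) ranked in the top 25% for H3K27me3 on both arrays of untreated mice and dropped below it on the array of mice given DSS. A region was a run of at least 3 probes, each starting no more than 500 bp after the one before. Its value on an array was the median over its probes of log2 immunoprecipitate over input, turned into a percentile among all 13729 regions of that array. The 196 regions were at or above percentile 75 in untreated mice at 7 and at 23 weeks of age and below 75 after DSS. Because all 3 arrays chose them, their values on those arrays are a description and carry no test. The top 25% is a rank and not a call of the mark: 187 of the 196 still lay above the median probe of the DSS array. So did 5574 of all 13729 regions and each of the 3014 regions in the top 25% on all 3 arrays.

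Trimethylation of lysine 27 of histone H3 is laid down by Polycomb repressive complex 2, mainly at CpG islands of genes that are silent or kept at low activity, many of them developmental regulators. The mark is bound by Polycomb repressive complex 1 and helps to keep such genes repressed through cell division. In the colon, epithelial cells are renewed continuously from stem cells at the base of the crypts, so a mark that persists long after an injury has to be carried through that renewal. DSS, dextran sulfate sodium, is a sulfated polymer that damages the colonic epithelium when given to mice and causes colitis.

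All mice were male Balb/c, and each of the 3 groups was 1 array made from a pool of 3 mice. The groups were untreated mice of 7 weeks, untreated mice of 23 weeks, and mice of 23 weeks that had received 2% DSS for 1 week from the age of 7 weeks. The chromatin came from colonic epithelial cells obtained by crypt isolation, and the label of the cells cannot be checked against marker genes on an array that measures chromatin. No group had a replicate, so no p-value is given and ± is the SD over the probes of a region within a single hybridisation, not between mice. Median background-subtracted intensities of the immunoprecipitate ranged from 120 to 475 over the arrays and those of the input from 217 to 537, the untreated 23-week array being the dimmest in both. Because each array stood on its own slide, the slide and the group cannot be told apart. Log2 values below are relative to the median autosomal probe of the same array.

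The 196 regions sat in the lower part of the untreated top 25% and most fell only a short way below it. Their median percentile was 79.1 at 7 weeks (lowest 75.04, highest 98.0), 78.5 in untreated mice at 23 weeks (75.02 to 96.2) and 72.6 after DSS (31.3 to 74.99). On the DSS array 143 of them (73%) were still within 5 points of the threshold, and 16 were below percentile 65. The SD over the regions was 6.03 points on the DSS array, 4.63 on the 7-week array and 4.03 on the untreated 23-week array. The rule bounds the untreated percentiles to the top 25% and leaves the DSS percentile free below it, so neither these spreads nor the closeness of the untreated ranks is a result. Measured against the lower of its untreated percentiles, the median region fell by 5.77 points, 47 regions fell by at least 10 and 11 by at least 20.

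**Figure D1:**
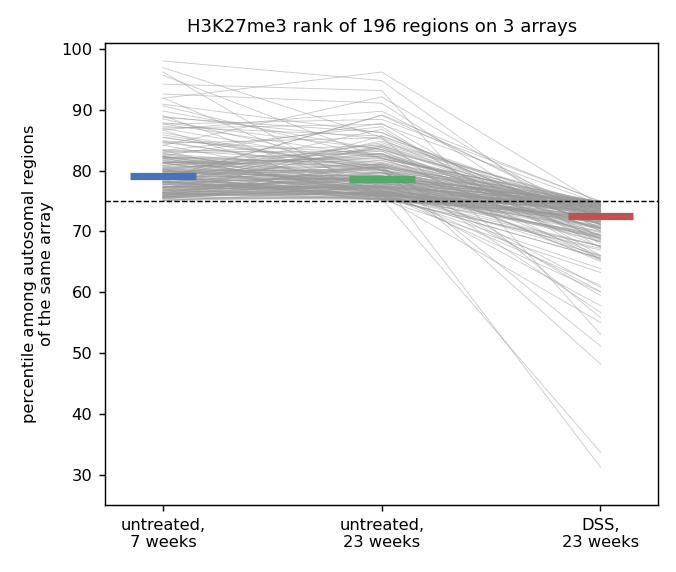
Percentile of each of the 196 regions on the 3 arrays (grey lines, 1 per region), with the median of each array as a coloured bar and the threshold of 75 as a dashed line. The medians are 79.1, 78.5 and 72.6, and 16 regions lie below percentile 65 on the DSS array.

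The threshold separated regions with nearly equal values. The 3 regions just inside it lay at percentiles 74.99, 74.96 and 74.91 on the DSS array, at chr13:54958326-54959761, chr11:28483412-28483890 and chr5:93678352-93678867. The 3 regions just outside it lay at 75.002, 75.02 and 75.03, at chr8:71809593-71810518, chr15:78990548-78991243 and chr13:56762470-56763396. All of these had a DSS log2 value of 0.52 or 0.53, and the region just inside on chromosome 11 had stood at percentile 87.6 and 88.4 in untreated mice.

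The share of regions leaving the top 25% was largest just above the threshold. Regions there need the smallest move to cross it, so this order follows from the rule and is not a result. Of 3210 regions in the top 25% on both untreated arrays, 6.11% left. Among those whose mean untreated percentile was between 75 and 80, 119 of 459 left (25.9%, Wilson 95% interval 22.1% to 30.1%). Between 80 and 85 the share was 8.15% (57 of 699), between 85 and 90 it was 2.12% (15 of 709), and at 95 or above it was 0.154% (1 of 651). Intervals here cover counting error over regions of the same arrays and say nothing of the variation between mice. Single departures of the other arrays were fewer and smaller with this ratio, but not in every processing. A drop below the top 25% on the 7-week array alone was seen in 123 regions and on the untreated 23-week array alone in 91. Falls of at least 10 points numbered 47 for DSS, 6 for 7 weeks and 9 for untreated 23 weeks, and falls of at least 20 points numbered 11, 0 and 1. With loess, a fit of the ratio on the brightness of the spot within each array, 247 regions were below on the untreated 23-week array alone against 199 on the DSS array, and with the immunoprecipitate alone 347 against 334. In the opposite direction, 205 regions were below the top 25% on both untreated arrays and in it after DSS.

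**Figure D2:**
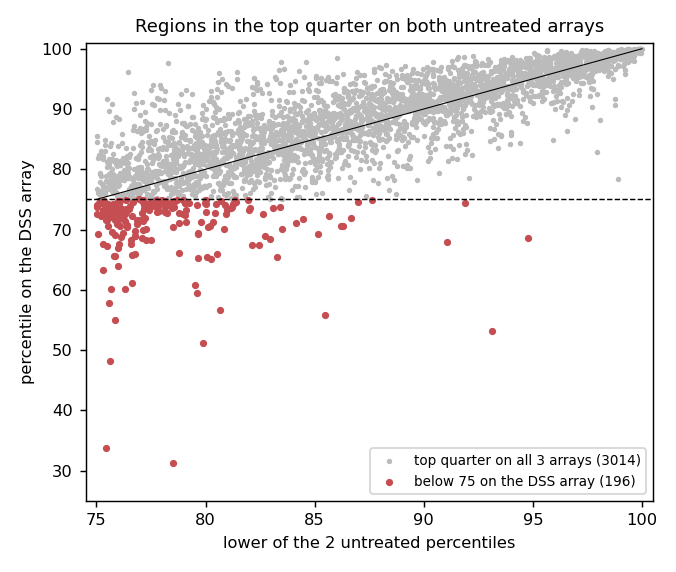
Percentile on the DSS array against the lower of the untreated percentiles for 3210 regions in the top 25% on both untreated arrays; red points are the 196 regions below 75 on the DSS array, the dashed line is percentile 75 and the diagonal marks equal rank. Most red points lie at untreated percentiles below 80, and 2 lie below percentile 40 on the DSS array.

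By the fixed rule, the 10 regions with the lowest DSS percentile among those with at least 5 probes were described one by one, in order of that percentile. Of these, 2 ended below the median region of that array, at 31.3 and 33.7, and 8 ended above it, at 51.2 to 60.1. The lowest lay at chr5:44388787-44389704 and had 7 probes. Its percentile was 82.2 at 7 weeks, 78.5 at 23 weeks and 31.3 on the DSS array, and its log2 value was 1.16 ± 0.49, 1.33 ± 0.32 and -0.62 ± 0.63. All 7 probes were lower after DSS than on both untreated arrays, by a median of -1.59 ± 0.65 from 23 weeks and -1.47 ± 0.81 from 7 weeks. Its probes overlapped between arrays, from 0.17 to 1.76 at 7 weeks, 0.55 to 1.43 at 23 weeks and -1.30 to 0.65 on the DSS array. At chr1:114243974-114244557, 6 of 6 probes were lower, and the percentile was 76.2, 75.4 and 33.7. This region stood just above the threshold in untreated mice and fell to -0.56 ± 0.62 from 0.80 ± 0.63 and 1.08 ± 0.52. At chr6:53968958-53969985, all 8 probes were lower, with log2 values of 1.02 ± 0.80, 1.44 ± 0.44 and -0.19 ± 0.37 and percentiles of 79.9, 80.1 and 51.2.

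A pair of neighbouring islands on chromosome 5 had high untreated ranks with the median ratio and fell together. At chr5:147584860-147585285 the percentile was 94.2 at 7 weeks, 93.1 at 23 weeks and 53.1 on the DSS array. Its 5 probes ran from 1.65 to 2.87 at 7 weeks, from 1.95 to 2.70 at 23 weeks and from -0.47 to 0.60 on the DSS array, so every DSS probe lay below every untreated one. The difference was -2.39 ± 0.53 from 23 weeks and -2.18 ± 0.69 from 7 weeks. Its neighbour chr5:147580464-147581088, 3772 bp away, had percentiles of 96.9, 85.5 and 55.8 and log2 values of 2.24 ± 1.01, 1.76 ± 0.54 and -0.08 ± 0.48. Here 5 of 5 probes were lower than at 23 weeks and 4 of 5 lower than at 7 weeks. The untreated percentiles of this neighbour depended on the measure. At 7 and 23 weeks they were 87.3 and 81.7 with the mean of probes and 84.2 and 85.7 with the deposited ratios. With the immunoprecipitate alone they were 68.3 and 72.7, so it did not meet the rule.

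The other 5 regions of the 10 had untreated percentiles between 75.6 and 80.4 and DSS percentiles between 55.1 and 60.1. They lay at chr8:116734059-116734867 (8 probes), chr17:67908719-67909390 (5 probes), chr16:72545687-72546573 (7 probes), chr6:77173215-77174429 (11 probes) and chr14:68911628-68912289 (6 probes). Every probe of these 5 regions was lower after DSS than on both untreated arrays. The differences from untreated mice at 23 weeks ran from -1.13 ± 0.31 on chromosome 6 to -1.47 ± 0.51 on chromosome 16. The region on chromosome 17 stood apart in its channels: its input differed by 0.73 and its immunoprecipitate by -0.38 between DSS and untreated 23-week mice. Its difference from 7 weeks was the smallest of the 10, at -0.31 ± 0.46.

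**Figure D3:**
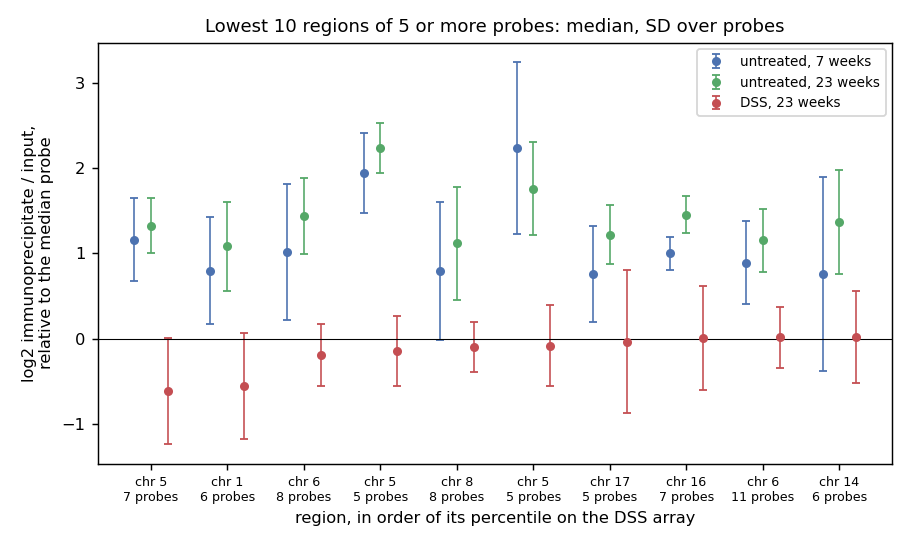
Log2 immunoprecipitate over input, relative to the median probe, of the 10 regions with the lowest DSS percentile among those with at least 5 probes; points are medians over probes and bars are ± 1 SD over probes within 1 array. The DSS points lie between -0.62 and 0.02 and below both untreated points in every region.

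Only 5 of the 196 regions had a mean untreated percentile of at least 90 with the median ratio, and these were the highest-ranked islands that left. Besides the pair on chromosome 5 they were at chr11:102896187-102896708, chr2:106496007-106496227 and chr5:135326499-135326931. The region on chromosome 11 had the highest untreated rank, with percentiles of 98.0 and 94.8 and 68.6 after DSS. Its log2 value went from 2.42 ± 0.41 at 7 weeks and 2.37 ± 0.26 at 23 weeks to 0.27 ± 0.15, lower in 5 of 5 probes. The region on chromosome 2 had only 3 probes and ended just under the threshold, at 74.3 after 91.9 and 96.2. On chromosome 5 at 135326499, percentiles were 92.6, 91.1 and 67.9, with a difference of -1.79 ± 0.42 from 23 weeks.

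The longest islands among the 196 fell by amounts on both sides of the median region. The 5 regions with most probes held between 16 and 22 of them, had DSS percentiles from 71.7 to 74.7 and differed from untreated 23-week mice by -0.60 to -1.37, beside a median of -0.89 over the 196. At chr16:20533313-20535998, the 22 probes had a median of 1.15 ± 1.03 at 7 weeks, 1.14 ± 0.84 at 23 weeks and 0.40 ± 0.67 on the DSS array. All 22 were lower after DSS than at 23 weeks, and 21 were lower than at 7 weeks. The largest difference from untreated 23-week mice among these 5 was at chr12:27927488-27929786, where 19 of 19 probes were lower than at 23 weeks by a median of -1.37 ± 0.34, and the percentile went from 84.5 and 85.4 to 71.7. The remaining ones lay at chr18:58961465-58963400 (18 probes), chr17:39452641-39454741 (17 probes) and chr16:9907097-9909418 (16 probes).

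Within a region the fall was shared by most probes. The 196 regions held 1226 probes, of which 1139 (92.9%) were lower after DSS than on both untreated arrays, and in 126 regions (64.3%) every probe was. Regions in the top 25% on all 3 arrays had 88.2% of their probes and 51.7% of regions in that state. Those of them with a mean untreated percentile below 85 had 79.4% and 32.6%, and all regions had 43.3% and 14.3%. Lower log2 values after DSS were thus common to marked islands in general, and the rule used these values in the 196. Over the distance from the region centre, the median difference from untreated mice at 23 weeks stayed between -0.83 and -0.99 in every bin out to 1000 bp on either side. No bin stood apart. The central bins held 185 and 183 of the 196 regions and the outermost bins 23 each. The bins thus pool different islands and do not show how the difference runs along a single island.

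**Figure D4:**
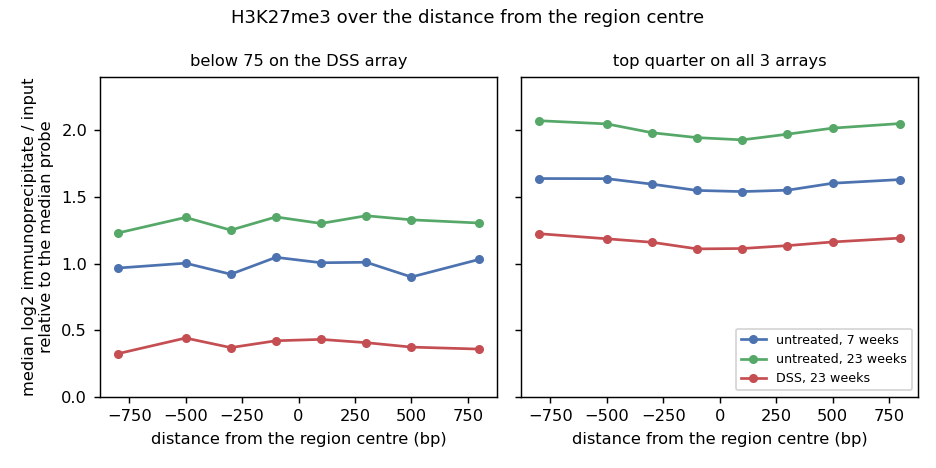
Median log2 immunoprecipitate over input, relative to the median probe, in bins of distance from the region centre, for the 196 regions (left) and for 3014 regions in the top 25% on all 3 arrays (right). In both panels the untreated 23-week array is highest and the DSS array lowest at every distance, and the left panel is lower throughout.

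On the log2 scale the 196 regions and the islands that kept their rank moved the same way, by different amounts. From untreated 23-week mice to DSS, the 196 had a median difference of -0.89 ± 0.33 (SD over regions), and from 7 weeks to DSS, which differ in age and treatment at once, one of -0.57 ± 0.38. Islands in the top 25% on all 3 arrays had medians of -0.77 and -0.42, and all 13729 regions 0.01 and -0.01. The DSS array had the narrowest range of region values, with an interquartile range of 1.30 against 1.65 at 7 weeks and 2.26 at 23 weeks. With the probe values of each array brought to 1 common interquartile range, the medians were -0.48 and -0.47 for the 196 regions and -0.02 and -0.12 for the islands that stayed. Both comparisons share the DSS array.

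At least 2-fold lower values after DSS than in untreated mice at 23 weeks were found in 68 of the 196 regions, beside 3.65% of all regions. Against 7 weeks the number was 26, beside 0.663%, and against both arrays 21, beside 0.466%. The rule used these contrasts, so the shares are not read as enrichment. With the common interquartile range 22 of the 196 were past 2-fold against untreated mice at 23 weeks, beside 1.41% of all regions, and all 22 were among the 68. Against 7 weeks 23 were, beside 0.444%, and 20 of these were among the 26. Between the untreated ages, 1 of the 196 was at least 2-fold higher at 23 weeks (0.168% of all regions) and 0 were 2-fold lower (0.233% of all regions). The region that was higher, chosen by that count, lay at chr14:32807669-32808021, with 0.95 ± 0.82 at 7 weeks, 1.98 ± 0.53 at 23 weeks and 0.52 ± 0.69 on the DSS array over 3 probes.

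The rule held the 196 regions in the top 25% at both untreated ages, and those arrays also stood on different slides. On the log2 scale 183 were higher at 23 than at 7 weeks, by a median of 0.32, but after scaling only 106 were, with a median of 0.02. By percentile 85 of the 196 (43.4%) were higher at 23 weeks, beside 50.1% of all regions.

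On the log2 scale, the lower ratio after DSS went with a lower immunoprecipitate in most of the 196 regions. Ranked on the immunoprecipitate alone, however, only 48 of the 196 met the rule. Relative to the median probe of each channel, the immunoprecipitate of the 196 had a median difference after DSS of -1.0 from 23 weeks and -0.52 from 7 weeks, while the input differed by 0.00 ± 0.37 and -0.01 ± 0.14. In 184 of the 196 regions (93.9%) the immunoprecipitate was lower than on both untreated arrays. This share was 93.7% in regions of the top 25% on all 3 arrays and 33.8% over all regions, so it does not set apart the islands that left. Input was higher than on both in 60 (30.6%), against 28.3% of all regions. Its part in single regions, such as that on chromosome 17 from 67908719, was not tested.

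A larger share of the islands that left the top 25% than of those that stayed lay far from any other region, a property the rule did not use. The nearest other region lay a median of 36.0 kb away for the 196 and 16.2 kb for regions in the top 25% on all 3 arrays. It lay at least 100 kb away for 71 (36.2%) and 531 (17.6%). Over all regions the median was 26.2 kb and this share 16.5%. Over the 205 regions that entered the top 25% after DSS they were 27.4 kb and 18.0%. Staying regions with a mean untreated percentile below 85, nearer in rank to the 196, had 28.1 kb and 22.8%. Seen from the other side, 71 of 602 isolated regions in the untreated top 25% left (11.8%, Wilson 95% interval 9.46% to 14.6%), against 125 of 2608 with a closer neighbour (4.79%, 4.04% to 5.68%). On the other arrays distance made little difference: regions below the top 25% at 7 weeks alone were 3.45% of isolated and 4.02% of other candidates, and in untreated mice at 23 weeks alone 3.1% and 2.89%. The 100 kb distance was chosen with the values in view, and no test over regions was made.

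**Figure D5:**
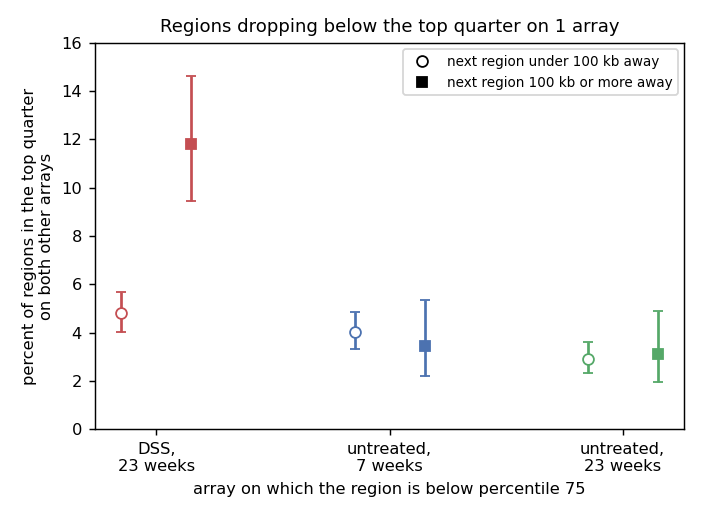
Percent of regions in the top 25% on both other arrays that were below percentile 75 on the array named, for regions whose nearest other region was under 100 kb (open circles) or 100 kb or more away (filled squares); bars are Wilson 95% intervals for counting error only. The isolated regions stand apart for the DSS array (11.8% against 4.79%), while the intervals overlap for both untreated arrays.

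The difference between isolated and other islands was largest at one level of the mark, and was not tested. Among regions with a mean untreated percentile of 80 to 85, 30 of 172 isolated ones left (17.4%, 12.5% to 23.8%) against 27 of 527 others (5.12%, 3.54% to 7.35%). At 75 to 80 the shares were 31.7% (24.02% to 40.45%) and 23.9% (19.7% to 28.7%). At 85 or above the shares were 0.968% and 0.976%. Isolated regions were ranked lower in untreated mice, with a median mean percentile of 85.4 against 88.9. The same order was seen at both numbers of probes: with at least 6 probes 9.34% of isolated and 3.35% of other regions left, and with 3 to 5 probes 16.9% and 6.47%. Over all candidates, including those that stayed, isolated regions shifted by a median of -1.26 points after DSS and the others by -0.02, and 63.8% and 50.4% were lower. Mean probe length, which on such arrays varies with base composition, had medians of 45.8 bases in both classes. Base composition itself was not measured, and its part was not tested.

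The share that left was also larger at small islands. It was 9.32% with 3 probes (37 of 397), 7.38% with 4 or 5, 4.91% with 6 to 9 and 4.38% with 10 or more (32 of 731). The 196 regions had a median of 5 probes and 583 bp, against 6 probes and 688 bp for islands in the top 25% on all 3 arrays. The 205 regions that entered the top 25% after DSS were small too, with medians of 5 probes and 532 bp, and 23.9% of them had 3 probes, beside 18.9% of the 196 and 11.9% of those that stayed. The 196 regions were spread over all 19 autosomes, from 2 on chromosome 18 to 19 on chromosome 2. The share of candidates that left ran from 2.27% on chromosome 18 (0.625% to 7.91%) to 13.3% on chromosome 16 (8 of 60, 6.91% to 24.2%), and of the 19 intervals 1, that of chromosome 16, lay just above the 6.11% of all chromosomes.

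Few of the islands that left had another of them nearby, but most had no other region of any kind within 20 kb. Of the 196 regions, 180 had no other of them within 20 kb, and the remaining 16 formed 8 pairs. In the surroundings of the 196, 116 other regions lay within 20 kb, of which 64 kept to the top 25% throughout and 44 were never in it. Of the 76 regions with any neighbour, 46 had a staying neighbour (60.5%), against 76.0% of staying regions with a neighbour. A neighbour that also left was found for 16 of the 76, against 64 of 1601 staying regions. No test over regions was made of these counts.

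In 4 of the 5 pairs named by the rule, both islands ended within 5 points of each other after DSS. The exception was on chromosome 6, where chr6:52240007-52240450 went to percentile 71.5 and its neighbour chr6:52242929-52244433 to 60.8, from untreated percentiles between 76.9 and 79.98. All 15 probes of the latter were lower than on both untreated arrays. The regions chr10:126567844-126569164 and chr10:126573491-126574244 had log2 values of 2.03 ± 0.72 and 1.90 ± 0.72 in untreated 23-week mice and 0.40 ± 0.56 and 0.22 ± 0.58 after DSS, lower in 12 of 12 and 8 of 8 probes. The region chr12:27925008-27926012 went to percentile 68.9, beside 71.7 in the long island next to it. The pair at chr17:39451519-39452156 and chr17:39452641-39454741 differed from the other 194 regions in its input. Its input intensity stood 5.08 and 5.06 above the median probe on the log2 scale in untreated 23-week mice, 4.49 and 4.46 in those of 7 weeks and 4.55 and 4.14 after DSS. No other of the 196 exceeded 2 on the untreated 23-week array. Whether this pair is sequence present in many copies was not tested.

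The identity of the 196 regions depended on how the ratio was made. Leaving out flagged and dim probes kept 167 of them, the mean in place of the median 100, normexp background correction 146 and the ratios of the deposited table kept 126. Loess gave 199 regions but shared only 34 with the 196, and the immunoprecipitate alone shared 48. Over 10 alternatives, these and those of region building and chromosomes included, 8 of the 196 met the rule every time. They include, named after their values were seen, the islands on chromosome 5 from 147584860, chromosome 6 from 53968958, chromosome 10 from 126567844, chromosome 11 from 102896187 and chromosome 12 from 27925008. The others lay at chr4:122606908-122607992 (79.1, 78.3 and 74.0), chr12:119681837-119682312 (80.1, 82.8 and 65.4) and chr19:17903744-17904792 (78.8, 86.8 and 66.1). The lowest region, on chromosome 5 from 44388787, met the rule in every ratio setting tried for it except loess. There its DSS percentile was 5.85, but its untreated percentiles were 70.5 and 65.3. With the immunoprecipitate alone its percentiles were 84.3, 76.0 and 67.5, a smaller fall than with the ratio. Its input was higher after DSS, by 0.46 from 23 weeks and 0.19 from 7 weeks, and the part of the input was not tested. The region on chromosome 1 from 114243974 left the untreated top 25% with dim probes left out, with the mean, with normexp and with loess. The region on chromosome 17 from 67908719 had an immunoprecipitate at percentile 95.3 after DSS when the input was not divided out.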

How the data were processed

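H3K27me3 chromatin immunoprecipitation on a 2-colour Agilent CpG island array was analysed for 3 pooled samples, 1 array each, with the immunoprecipitate in Cy5 (red) and whole-cell input in Cy3 (green) per the labels. The deposited intensity values were background-subtracted and dye-normalised by the authors in Agilent Feature Extraction (10.7.3.1 per the file headers, 9.1 per the submitters' processing notes). The deposited log10 ratio equalled that of red over green processed intensity within 0.001 at over 99.9% of probes. A deposited table of linear ratio values, with medians near 1 and of the direction of red over green (r of 0.79 to 0.82 with the same array's scanner values over probes), served as an alternative; its making was not given in the sources used here.

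All 94499 autosomal probes entered, dim and flagged ones included; 93029 lay in the 13729 regions. Log2 ratios were centred on each array's median autosomal probe, with no loess or quantile step, and differences were taken per probe and then as region medians. No genome build was given in the sources used here, so coordinates stand as in the array files, and no gene, exon or sequence is named. Regions were named by rule: 10 of lowest DSS percentile and 5 with most probes (at least 5 probes each), 3 on either side of the threshold, 5 pairs within 20 kb, and counts of 5 or fewer in full. The members, rule and lists were chosen with earlier results of these data known. With 1 array per group no test was possible, and the number of arrays limits the precision. The script was tested on simulated data. Python 3.11.15, scipy 1.17.1 and limma 3.58.1 (normexp with offset 50, loess) were used.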

Additional observations from a re-analysis of the deposited data

How the results depend on the processing

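The number of regions leaving the top 25% stayed within 1.5 times 196 (156 to 210) under 11 of 12 alternatives and was 334 with the immunoprecipitate alone. Equal numbers did not mean the same regions, as the shared counts above show. The threshold at percentile 70 or 80 gave 207 and 191 regions, of which 53 and 48 were among the 196 by construction. The median difference from untreated mice at 23 weeks was negative under all 7 alternatives, but the rule used this contrast, so its sign is not a result. It was -0.48 with a common interquartile range, -0.43 with quantile normalisation and -0.27 with loess. The regions at least 2-fold lower numbered 22 (1.41% of all regions), 21 (0.444%) and 4 (0.160%) in these, and 21 (0.299%) with normexp. Against 7 weeks they numbered 8 with loess (0.131%). The cause was not tested. The share leaving was higher at isolated regions under all 12 alternatives, which were chosen for this split after seeing the data: 8.14% to 17.3% against 3.61% to 9.73%. Counts were called moved when they differed by more than a factor of 1.5, and median differences when they differed by more than the SD over regions. Shares of isolated and other regions were called moved outside the main Wilson interval. Percentiles of named regions were called moved outside a width set by the SD over their probes. No paired analysis was possible because each group had 1 array. Dim probes were few: 2 of the 1226 were not well above background in some channel, against 6.10% of all probes in regions.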
